A study of Mus musculus with 6 samples.

Results

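Zinc finger protein genes were described as targets of AGO2-bound miRNAs in the mouse embryonic carcinoma line P19. Members were the target genes whose deposited name is Zfp or Znf followed by a digit. This rule took 58 of 3200 target genes, with 431 hybrid entries and 436 of 15680 hybrid reads. Of the members, 54 carry human-style Znf names and 4 carry mouse Zfp names (Zfp36, Zfp36l1, Zfp36l2 and Zfp91). Set against RefSeq, 4 names matched as a symbol, 38 matched a synonym of 1 gene and 16 matched no single gene, so the names are used here as deposited. The rule reads names only, so zinc finger genes under other names are not members.

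The study asked which targets the miRNAs of Dicer-mutant cells bind. WT cells were Dicer (+/+), and HM cells were Dicer (HM/-), with an RNase IIIb hotspot mutation on 1 allele and a loss-of-function allele on the other. Both are P19 cells, and HM is a line grown from a clone, so what sets the clone apart and what the mutation does cannot be told apart. The method was AGO2 CLASH, in which a miRNA is ligated to the piece of target RNA bound in its AGO2 complex and the joined hybrid is sequenced, with 3 libraries per genotype. Library totals ran from 1621 to 2331 hybrid reads for WT and from 1661 to 5341 for HM. Values of single libraries are given below in the order of libraries 1 to 3. Libraries of a genotype had at most 5.02% of their whole sequences in common, so they were counted separately. By a Monte Carlo chi-square test over miRNAs, WT library 3 differed from WT library 1 (p = 0.0131) and from WT library 2 (p = 0.0001, the smallest these draws can give), while the other pairs of 1 genotype gave p from 0.116 to 0.385.

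Most proteins named Zfp or Znf carry C2H2 zinc fingers, small zinc-holding loops that read DNA, and many of them bring corepressors to chromatin. Some members are different in kind. The Zfp36 proteins have CCCH fingers that bind AU-rich RNA and speed its decay, and Zfp91 and Znf451 act as ligases of ubiquitin and SUMO. AGO proteins find a target mainly through the seed of the miRNA, bases 2 to 8, which pairs with a complementary stretch of the mRNA. RNase IIIb is the Dicer domain that cuts the 5p side of the miRNA precursor, and the miR-302 and miR-290 clusters are the characteristic miRNAs of pluripotent mouse cells. Only fragments in 3′ UTRs and pairs with a predicted interaction were kept by the authors, so binding in the coding repeats that encode the fingers is outside these data.

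The mature sequences of the miRNAs on which the results turn are shown with the seed in capitals (RefSeq, GRCm38.p6). The first set shares the seed AAGUGCU and held the most family hybrids.
miR-302b-3p: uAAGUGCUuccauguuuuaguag
miR-302d-3p: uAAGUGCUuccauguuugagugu
miR-295-3p: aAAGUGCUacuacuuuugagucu
miR-302a-3p belongs to this seed group by its hybrid reads. The next set, with the seed AAAGUGC, is the main 5p set on members, and its seed overlaps the first by 6 bases in a shifted register.
miR-20b-5p: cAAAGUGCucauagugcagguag
miR-93-5p: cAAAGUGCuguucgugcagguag
miR-106a-5p: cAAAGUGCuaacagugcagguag
The third set has the seed AUUGCAC and was scarce on members.
miR-367-3p: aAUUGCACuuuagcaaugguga
miR-92a-3p: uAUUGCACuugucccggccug
miR-25-3p: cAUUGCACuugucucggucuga
The last 4 are single miRNAs whose share on members stood apart or lay mostly on 1 member.
miR-291a-5p: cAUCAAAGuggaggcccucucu
miR-191-5p: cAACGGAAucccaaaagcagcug
miR-210-3p: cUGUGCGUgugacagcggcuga
miR-30a-3p: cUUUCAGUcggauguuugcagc
The miR-302 and miR-367 genes printed here are neighbours on chromosome 3. The mature miR-302b-3p lies at chr3:127545275-127545297 and miR-367-3p at chr3:127545779-127545800, both on the plus strand, so 1 cluster supplied both the most frequent miRNA on members and the called deficit with the lowest adjusted p.

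The target sites are shown as deposited fragments of at most 30 bases, with the match to the miRNA seed in capitals. A site is a set of fragments of 1 gene linked by a shared stretch of 12 bases, numbered by its reads. The 3 sites of Zfp91 with most reads come first, because Zfp91 held the most reads of all members.
Zfp91 site 1, miR-302b-3p: acctccataatgctcttaatg
Zfp91 site 2, miR-19b-3p: ggcagaaaTTTGCACtttga
Zfp91 site 3, miR-302b-3p: gcttgacttgGCACTTtagg
The sites of Znf451 and Znf367 follow, because these genes held a miR-302 site in both genotypes beside a 5p site seen mostly or solely in WT.
Znf451 site 1, miR-302b-3p: ttacccttatgtacttaatg
Znf451 site 2, miR-302b-3p: tattgtacagctcttaagta
Znf451 site 3, miR-191-5p: aatactatTTCCGTTtattg
Znf367 site 1, miR-20b-5p: gagagaattGCACTTTtttt
Znf367 site 2, miR-302b-3p: tgagattgGCACTTgtgtttg
The remaining 5 sites were bound in 1 genotype only, or match the miR-302 seed in full.
Znf148 site 2, miR-30a-3p: tgcgcctacctatgACTGAAcct
Znf148 site 3, miR-302b-3p: agcatagtattGCACTTcagcaggga
Znf22 site 1, miR-302b-3p: ttacagtagAGCACTTagat
Znf668 site 1, miR-302b-3p: tggaggcagatAGCACTTctg
Znf146 site 1, miR-291a-5p: ggagggagggcttaagCTTTGATatgagcg
The capitals of Znf148 site 2 pair with bases 3 to 8 of miR-30a-3p, not with base 2. No family fragment was identical to one assigned to another gene, while 14 target fragments of all entries were listed under more than 1 gene. Of 423 distinct whole hybrid sequences on members, 7 occurred in more than 1 library.

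The family held a small and similar share of the hybrids in every library. It took 65, 67 and 45 reads (WT), or 3.37%, 2.87% and 2.78% of the hybrids, and 38, 146 and 75 reads (HM), or 2.29%, 2.73% and 2.68%. The WT libraries averaged 3.01% ± 0.318 (SD, n = 3) and the HM libraries 2.57% ± 0.244 (SD, n = 3). The difference of -0.439 percentage points compares with a pooled SD of 0.283, and the lowest WT library lay at 2.78% and the highest HM library at 2.73%. The exact 95% binomial intervals of those 2 libraries ran from 2.03% to 3.70% and from 2.31% to 3.21%. Among 3p hybrids alone the shares were 2.69% ± 0.503 in WT and 2.64% ± 0.215 in HM (SD, n = 3) and overlapped. These intervals cover counting error only.

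Reads were concentrated on a few members. Zfp91, Znf451, Znf367 and Znf148 held 218 of the 436 reads (50.0%), 11 members had at least 10 reads with 312 reads between them, 27 had 2 to 9 and 20 had 1. The median member had 3 reads and the median other target gene 2. Of the members, 28 were seen in both genotypes, 11 in WT only and 19 in HM only, and the HM libraries together are the deeper ones, with 9799 reads against 5881. A member with 1 read can fall in 1 genotype only. The same split over all 3200 target genes was not made, so these counts are not a result about members.

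The arm of the bound miRNA on members differed between the genotypes by far more than the spread between libraries. Of family reads with an arm in the miRNA name, 5p-miRNAs took 35 of 65, 41 of 67 and 28 of 45 (WT). In HM libraries 1 to 3 they took 0 of 38, 2 of 145 and 2 of 75. This is 59.1% ± 4.57 in WT against 1.35% ± 1.33 in HM (SD, n = 3), with no overlap. The count of 0 in HM library 1 allows a share of up to 7.89%. On all other genes the 5p share was 53.8% ± 2.22 in WT and 3.98% ± 0.315 in HM (SD, n = 3), so both target classes showed the same direction.

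Among 3p hybrids on members, the miRNA strands that the study calls passengers took 1 of 30, 1 of 26 and 1 of 17 reads (WT) and 5 of 38, 22 of 143 and 7 of 73 (HM). Guide and passenger are the strand of a miRNA duplex that is usually kept and the one usually discarded. The passenger shares were 4.35% ± 1.35 in WT and 12.7% ± 2.92 in HM (SD, n = 3), a difference of 8.36 percentage points against a pooled SD of 2.28, beside 7.13% ± 0.796 and 15.7% ± 0.982 on other genes. Each WT value rests on 1 read. When 3p-miRNAs without a class are counted as passengers the difference on members becomes -2.88 points, since strands without a class, such as miR-302a-3p, took 21.2% ± 4.82 of 3p family hybrids in WT and 9.94% ± 3.99 in HM (SD, n = 3).

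**Figure D1:**
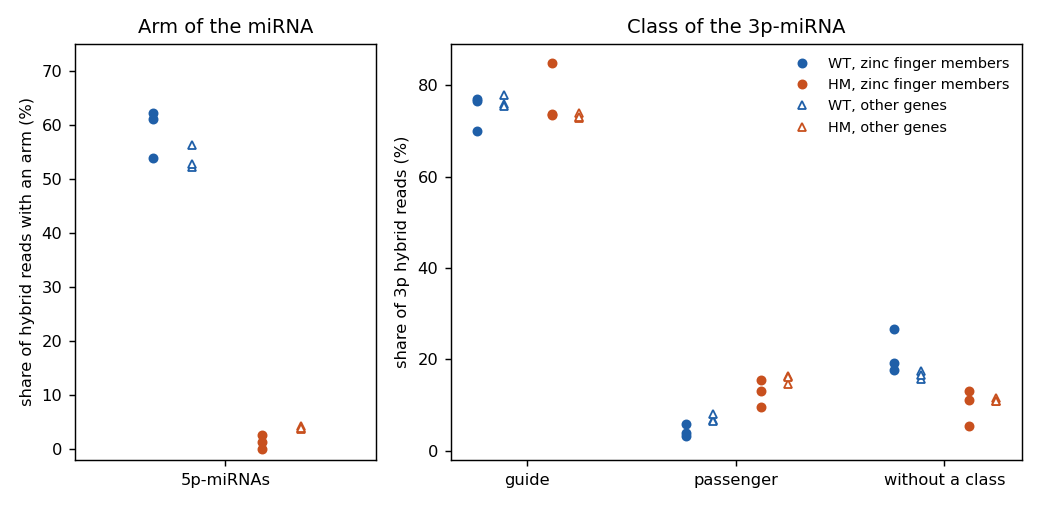
Share of hybrid reads with 5p-miRNAs (left, percent of reads with an arm) and share of 3p hybrid reads with guide, passenger or unclassed 3p-miRNAs (right, percent). Filled circles are single libraries on zinc finger members and open triangles single libraries on other genes. The 5p share of members lies between 53.8% and 62.2% in WT and between 0% and 2.67% in HM.

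The miR-302 seed group took a larger share of family hybrids than of other hybrids in all 6 libraries. miRNAs with the seed AAGUGCU, which include miR-302a, b and d, miR-294 and miR-295, had 20 of 65, 18 of 67 and 13 of 45 family reads (WT) and 23 of 38, 78 of 146 and 48 of 75 (HM). Their share was 28.8% ± 1.95 of family hybrids against 18.7% ± 0.0942 of other hybrids in WT. In HM it was 59.3% ± 5.39 against 36.1% ± 1.14 (SD, n = 3 throughout). Within library the difference was 0.67 ± 0.07 on the log2 scale, or 1.59-fold (SE, edgeR quasi-likelihood test, adjusted p = 5.97e-08 over 63 seed groups). Here and in the seed and miRNA tests below, reads were summed over all members. Their p-values thus measure the spread between the 6 libraries and not that between genes. The group was found on 26 members. Among 3p hybrids alone it made up 70.8% ± 5.08 of family hybrids in WT and 60.3% ± 5.61 in HM, against 40.8% ± 1.91 and 37.8% ± 1.25 on other genes (SD, n = 3).

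The call rested on the members with most reads. Without Zfp91, Znf451, Znf367 and Znf148 the log2 difference fell to 0.44 (edgeR adjusted p = 0.111), and with 1 count per miRNA, gene and library it was 0.43 (edgeR adjusted p = 0.0679). The log2 difference also depended on the scaling. It was 0.05 after TMM scaling, and its sign reversed to -1.61 with the size factors of DESeq2. Both scalings favoured lower calls over all seed groups, so they are a weak check of a higher call. Over the alternatives for this group the adjusted p of edgeR ranged up to 0.760.

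The opposite pattern held for the seed AUUGCAC, the group of miR-367, miR-92a and miR-25. It had 3, 2 and 1 family reads (WT) and 5, 15 and 6 (HM). The family share was 3.27% ± 1.22 against 14.3% ± 2.09 of other hybrids in WT, and 10.5% ± 2.58 against 25.4% ± 1.44 in HM (SD, n = 3). It was lower on members in 6 of 6 libraries, with a log2 difference of -1.53 ± 0.15 (SE, edgeR adjusted p = 4.34e-11). The call held without the 4 members with most reads (-1.53, edgeR adjusted p = 2.03e-05). It also held under both other scalings, but these favoured lower calls and so are a weak check. Over all seed groups TMM gave 5 lower and 2 higher calls, and DESeq2 gave 11 lower and 0 higher. With 1 count per miRNA, gene and library the log2 difference of AUUGCAC was -0.77 (edgeR adjusted p = 0.0679).

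Of 63 seed groups tested, 5 passed the threshold of 0.05 (7.94%), 4 higher on members (6.35%) and 1 lower (1.59%). The other 3 were small. AUCAAAG, the seed of miR-291a-5p, had 19 family reads (1.58 on the log2 scale, edgeR adjusted p = 0.0293). AACGGAA of miR-191-5p had 7 (3.16, adjusted p = 0.000633) and UGUGCGU of miR-210-3p had 5 (3.15, adjusted p = 0.00609). AAAGUGC, the miR-17 and miR-20 seed, did not pass the test, with 12.8% of family reads and 13.2% of other reads (-0.14 on the log2 scale, SE 0.17, edgeR adjusted p = 0.564). In WT it took 30.7% ± 6.63 of family hybrids, and in HM 1.12% ± 1.38 (SD, n = 3).

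**Figure D2:**
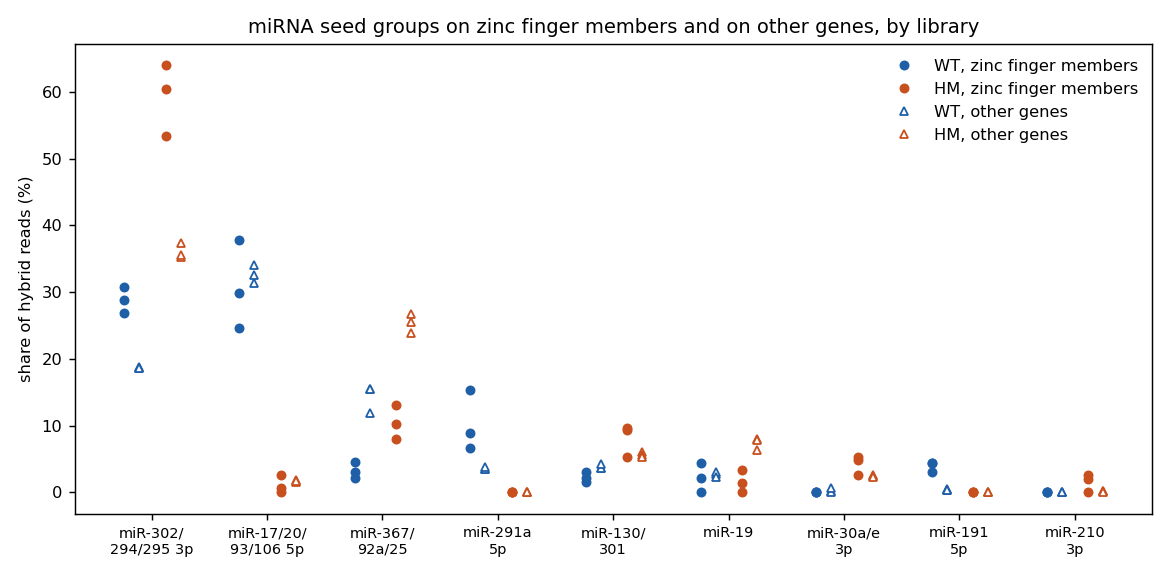
Share of hybrid reads, in percent, taken by 9 miRNA seed groups on zinc finger members (filled circles) and on other genes (open triangles), 1 symbol per library and genotype in colour. The miR-302 group is higher on members in every library and the miR-367/92a/25 group lower.

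Of 94 miRNAs tested, 8 were called (8.51%), 4 higher on members (4.26%) and 4 lower (4.26%). miR-302b-3p, the miRNA with most family reads, had 9, 6 and 6 reads on members (WT) and 16, 49 and 32 (HM). That is 27.1% of family reads against 15.4% of other reads (log2 difference 0.85 ± 0.12 SE, edgeR adjusted p = 7.95e-07), higher in 6 of 6 libraries. It bound 18 members, and Zfp91 alone took 34 of its 118 family reads. Without the 4 members with most reads its difference was 0.34 (edgeR adjusted p = 0.765), and it was -0.31 after TMM scaling and -1.11 with DESeq2.

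miR-367-3p, from the same cluster, had 2, 2 and 1 family reads (WT) and 4, 11 and 5 (HM). It took 5.73% of family reads against 14.8% of other reads (-1.34 ± 0.20 SE, edgeR adjusted p = 2.37e-06), lower in 6 of 6 libraries. miR-92a-3p had 1 family read, on Znf445, against 549 other reads, a ratio of shares of 0.0637 with an exact 95% interval of 0.00161 to 0.356 that covers counting error only (edgeR adjusted p = 0.000287). Without HM library 2 the adjusted p was 0.119. miR-19b-3p, on 5 members with 8 reads, was lower as well, in 4 of 6 libraries (-1.47, edgeR adjusted p = 0.0141), and its adjusted p was 0.109 without HM library 1 and 0.316 without HM library 2.

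miR-466i-5p had no family read against 229 on other genes. A count of 0 allows up to 0.688% of the family reads of all 6 libraries, so its share was at least 2.18-fold lower on members (edgeR adjusted p = 0.019). That call was lost without WT library 3 (adjusted p = 0.0582) and without HM library 1 (adjusted p = 0.0565) or 2 (adjusted p = 0.222), and also without Zfp91 (adjusted p = 0.0714). The other 3 miRNAs called higher each leaned on 1 member or few reads. miR-291a-5p had 9, 5 and 3 family reads (WT) and none in HM, and 12 of its 17 lay on Znf146. miR-191-5p had 2, 3 and 2 in WT and none in HM, with 6 of 7 on Znf451. miR-210-3p had 3 and 2 reads in HM libraries 2 and 3 and none elsewhere, on 4 members.

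These 3 calls were not steady. The adjusted p of miR-291a-5p was above 0.05 without any single library but HM library 3, the highest being 0.502 without WT library 1. That of miR-191-5p was 0.139 once WT library 2 was left out and 0.0582 once WT library 3 was left out. That of miR-210-3p was 0.438 without HM library 3 and 0.0545 without WT library 3, and it had too few reads to be tested without HM library 2. With 1 count per miRNA, gene and library none of 90 miRNAs was called by edgeR, and 7 had an unadjusted p below 0.05.

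Of the 10 miRNAs with most family reads, the other 7 did not pass. miR-302d-3p had 38 reads (0.58, adjusted p = 0.228) and miR-302a-3p 34 (0.37, adjusted p = 0.699). miR-20b-5p had 22, with 19 of them in WT. miR-301a-3p had 13, miR-130a-3p and miR-30a-3p had 11 each, and miR-292a-3p had 10. In the edgeR interaction test no preference passed as different between HM and WT (0% of 94 miRNAs), and 2 had an unadjusted p below 0.05. The test cannot decide this for miRNAs without family reads, or without HM reads on either target class. Among the called miRNAs, miR-466i-5p had no family read, and miR-291a-5p and miR-191-5p had no HM read on members or other genes.

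Matches to bases 2 to 7 of the miRNA were less frequent on members than on other targets in 5 of 6 libraries. Of 431 family entries, 231 held a match to bases 2 to 7 of their miRNA in the target fragment (53.6%), against 58.7% of other entries. The family share averaged 59.2% ± 9.91 in WT and 47.6% ± 2.99 in HM, against 64.0% ± 2.85 and 55.4% ± 1.73 on other genes (SD, n = 3). The mean difference within library was -6.32 percentage points with an SD of 5.83 over 6 libraries. A match to bases 2 to 8 was in 32.7% of family entries and 40.0% of other entries. That share was higher on members in 0 of 6 libraries, with a mean difference of -6.98 points (SD 5.03). The share with a match to bases 2 to 7 varied widely among the members with at least 10 reads. It was 84.6% of 13 entries on Znf146, 82.6% of 46 on Znf367 and 81.8% of 11 on Znf436, and 30.2% of 53 on Znf451, 31.0% of 42 on Znf148 and 15.4% of 13 on Zfp36l2. On Zfp91, the member with most entries, it was 43.2% of 74. The lower family share for bases 2 to 7 thus leaned on Zfp91, Znf451 and Znf148, and was not a trait of members in general. Matches to bases 2 to 8 were not split by member.

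Within the AAGUGCU group the full 7-base match AGCACTT was in 18.4% of 196 family entries and in 25.3% of 4386 other entries. The 6-base match GCACTT was in 45.9% and 45.1%. The most read site of Zfp91 and site 2 of Znf451 hold neither, and both contain GCTCTTA, a stretch searched for after these sites were seen. It was in 15.3% of the family entries of the group and 3.51% of the other entries, and 23 of the 30 family entries were on Zfp91. The other entries with it came from 52 genes outside the family, of which 1 alone had 24, so the stretch is not particular to members. The stretch GTACTTA of Znf451 site 1 was in 6.63% and 3.33%. All motifs were read on the strand of the fragment as deposited. These shares describe the fragments and say nothing of whether the miRNA acted there.

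HM and WT were then compared member by member. Reads summed per gene were tested over all 344 target genes with at least 10 reads, of which 57 were called (16.6%), 20 higher (5.81%) and 37 lower (10.8%) in HM. Of the 58 members 11 were tested and 1 was called, Znf146, while 2 had an unadjusted p below 0.05. The median log2 fold change of HM over WT was 0.42 over the tested members and 0.27 over all genes tested, and 8 members had a positive and 3 a negative value. For 4 of the 11 members the ranges of the WT and HM libraries did not overlap, beside 30.8% of all genes tested. With 1 HM clone and 3 libraries a genotype, p-values measure the spread between these libraries.

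Znf146, which encodes a protein made almost wholly of C2H2 fingers, was bound in WT only. It had 7, 6 and 0 reads (WT) and 0 in each HM library. Set against 3 reads in each HM library, the mean WT level per 1000 hybrids was higher by at least 1.80-fold (edgeR adjusted p = 0.000648). Of its 13 reads 12 were hybrids with miR-291a-5p, a 5p strand of the miR-290 cluster, at the site printed above, and 11 of those 12 held a seed match. Both DESeq2 fits gave an adjusted p of at least 0.468, and WT library 3 had none of these reads. Without WT library 1 or 2 the gene had too few reads to be tested, so its call rests on both. On all other genes miR-291a-5p had 198 of 5704 reads in WT and 0 of 9540 in HM. Its absence from HM was therefore not particular to Znf146.

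Zfp91 encodes a ubiquitin ligase and was the member with most reads. It had 12, 10 and 6 reads (WT) and 7, 24 and 18 (HM), which is 4.74 ± 1.32 and 5.05 ± 1.21 per 1000 hybrids (SD, n = 3). The levels overlapped (log2 fold change 0.08, SE 0.41, edgeR adjusted p = 0.922). Its composition differed. In WT 9 of its reads came from 5p-miRNAs and 19 from 3p-miRNAs, and in HM all 49 came from 3p-miRNAs.

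The reads of Zfp91 lay mainly on 3 sites. Site 1 had 2, 3 and 1 reads (WT) and 4, 9 and 9 (HM), and 26 of its 28 reads came from the AAGUGCU group with no seed match in any of them. Site 2 had 3, 1 and 0 reads (WT) and 1, 8 and 4 (HM), from miR-19b-3p, miR-301a-3p, miR-302b-3p and 4 others, with 16 of its 17 reads holding a match to their own miRNA. Site 3 had 1, 2 and 0 (WT) and 2, 4 and 4 (HM). Site 2 joins TTTGCAC, the match of miR-19, with GCACTTT, so that miRNAs of several seeds match overlapping letters there.

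Znf451, a SUMO ligase, had 12, 11 and 6 reads (WT) and 4, 12 and 8 (HM). This is 4.88 ± 1.27 per 1000 hybrids in WT and 2.51 ± 0.318 in HM (SD, n = 3), with no overlap between the genotypes. The log2 fold change was -0.98 ± 0.48 (SE), and it did not pass the test (edgeR adjusted p = 0.188). Its 10 5p reads were all in WT. The miR-191-5p site had 2, 3 and 2 reads (WT) and none in HM, and 6 of these 7 were miR-191-5p with a full seed match. On all other genes miR-191-5p had 24 of 5704 reads in WT and 0 of 9540 in HM, so its absence from HM was not particular to Znf451. Sites 1 and 2, bound mostly by the miR-302 group, totalled 5 and 4 WT reads and 8 and 7 HM reads.

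Znf367 had 7, 10 and 6 reads (WT) and 5, 12 and 6 (HM). This is 3.87 ± 0.363 per 1000 hybrids in WT and 2.47 ± 0.473 in HM (SD, n = 3), and the genotypes did not overlap. The log2 fold change of -0.71 ± 0.51 (SE) did not pass the test (edgeR adjusted p = 0.397). Its WT and HM reads lay mostly on different sites. Site 1, which holds GCACTTT, had 4, 7 and 3 reads (WT) and 2, 1 and 1 (HM), with 12 of 18 from 5p-miRNAs of the AAAGUGC seed. Site 2, which holds GCACTTG, had 1, 1 and 1 reads (WT) and 2, 7 and 3 (HM), all 15 from 3p-miRNAs. In total 18 of its 23 WT reads were 5p, and none of its 23 HM reads was.

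Znf148, which binds GC-rich promoters, had 3, 1 and 5 reads (WT) and 3, 20 and 10 (HM). This is 1.69 ± 1.33 and 3.04 ± 1.07 per 1000 hybrids (SD, n = 3), with overlap between the genotypes. The log2 fold change was 1.07 ± 0.60 (SE, edgeR adjusted p = 0.269). Its HM reads included a site bound by miR-30a-3p, which the study classes as a passenger. That site had no read in WT and 1, 5 and 3 reads (HM), and the pair had too few reads to be tested. Another site, bound by miR-302b-3p and 4 other 3p-miRNAs, had no read in WT and 0, 5 and 2 in HM.

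**Figure D3:**
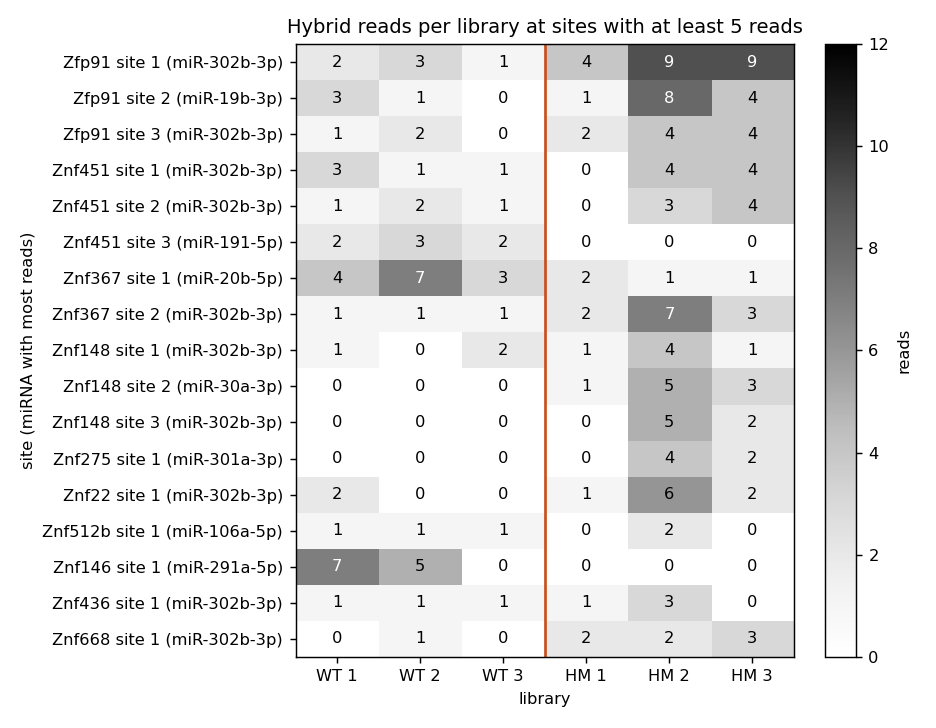
Hybrid reads per library at the 17 sites of members with at least 5 reads. Rows are sites labelled by the miRNA with most reads, columns are the libraries, the number in a cell is the read count and shading follows it. The miR-291a-5p site of Znf146 and the miR-191-5p site of Znf451 have reads in WT only, and the miR-30a-3p site of Znf148 in HM only.

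The other 6 tested members had 11 to 16 reads. Znf22 had 2, 0 and 0 reads (WT) and 1, 7 and 5 (HM) (log2 fold change 1.82 ± 1.03 SE, edgeR adjusted p = 0.273), with 11 of its 15 reads on 1 site that matches miR-302 in full. Znf436 had 1, 1 and 1 against 2, 4 and 2 reads and Znf827 1, 0 and 1 against 3, 4 and 2. Both were higher in every HM library than in any WT library once scaled, and neither passed the test (edgeR adjusted p = 0.754 and 0.492). Zfp36l2, a factor of AU-rich mRNA decay, had 2, 1 and 1 reads (WT) and 2, 4 and 3 (HM) (adjusted p = 0.83). Znf275 and Znf512b totalled 5 and 4 WT reads and 11 HM reads each, with overlapping libraries.

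**Figure D4:**
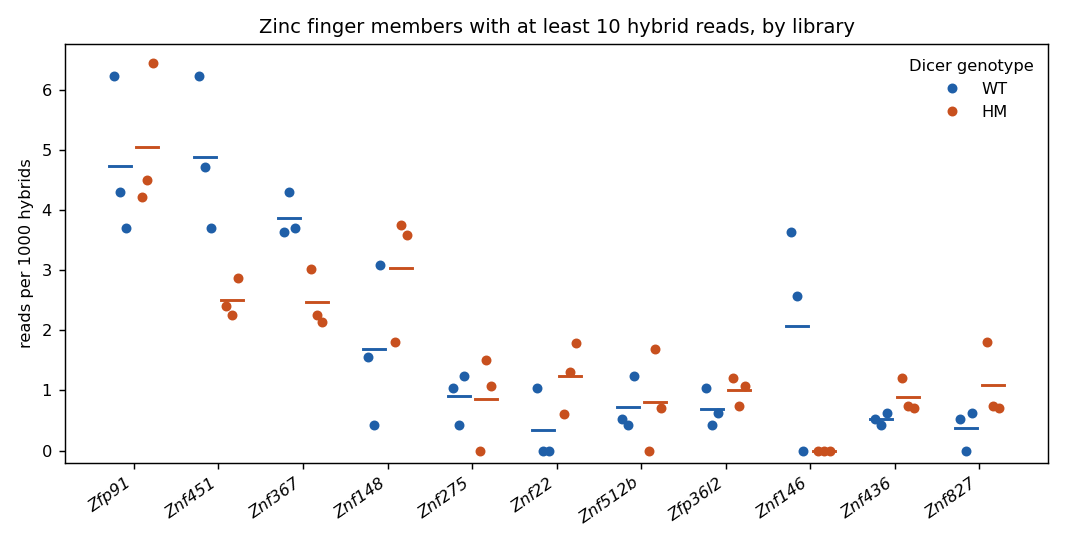
Reads per 1000 hybrids of the 11 zinc finger members with at least 10 reads. Points are libraries (3 WT, 3 HM), horizontal bars are group means. Znf451 and Znf367 lie lower in every HM library than in any WT library, and Znf146 has reads in 2 of the WT libraries and in no HM library.

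The choice of total decided several of these values. The main comparison divides by all hybrids, of which the 5p part is nearly missing in HM. With the totals of 3p hybrids as library size, 68 of 344 genes were called lower (19.8%) and 1 higher, and the median over all genes tested went from 0.27 to -0.75. The gene counts kept 5p reads while this total left them out, so a downward shift was built in for all genes. Znf451 (-2.03, edgeR adjusted p = 0.000308) and Znf367 (-1.75, edgeR adjusted p = 0.00605) were then called lower beside Znf146, and Zfp91 changed sign to -0.96 (edgeR adjusted p = 0.0925). Counting 3p reads alone per 1000 3p hybrids, Znf367 had 1.85 in WT and 2.46 in HM, Zfp91 7.02 and 5.23, Znf451 7.02 and 2.56 and Znf148 0.739 and 3.52, as pooled values with no test. The WT value of Znf148 rests on 2 reads and that of Znf367 on 5.

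Members formed 213 miRNA-gene pairs, of which 153 had 1 read. Of the 213 pairs, 23 were seen in both genotypes, 91 in WT only and 99 in HM only. A pair with 1 read can fall in 1 genotype only. The same split over all 8181 pairs was not made, so these counts are not a result about members. Over all pairs with at least 10 reads 22 of 140 were called (15.7%), 3 higher (2.14%) and 19 lower (13.6%) in HM, and 4 of the tested pairs were on members. These directions follow the total, since with all hybrids in place of 3p hybrids as library size 20 pairs were called higher and 13 lower, and the median over all pairs tested went from -0.17 to 0.84. miR-291a-5p on Znf146 was called, with 7, 5 and 0 reads in WT and none in HM, a WT mean at least 3.39-fold higher per 3p hybrid than 3 reads in each HM library (edgeR adjusted p = 1.46e-05). Per hybrid of either arm the same bound was 1.68-fold. Both DESeq2 fits did not call it, and it was not tested without WT library 1 or 2. In HM miR-291a-5p had no read on other genes either, so the absence was not particular to this pair.

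The 3 other tested pairs all had miR-302b-3p. On Zfp91 it had 2, 3 and 3 reads (WT) and 2, 12 and 12 (HM) (-0.08, edgeR adjusted p = 0.958). On Znf451 it had 4, 1 and 3 against 2, 8 and 3 (-1.08, adjusted p = 0.422), and on Znf367 1, 2 and 0 against 2, 4 and 3 (-0.16, adjusted p = 0.958). Of the 10 family pairs with most reads the remaining 6 had 7 to 9 reads. They were miR-302b-3p on Znf148, Znf22 and Zfp36l2, miR-30a-3p on Znf148, miR-302d-3p on Zfp91 and miR-20b-5p on Znf367. The last had 1, 3 and 3 reads (WT) and none in HM.

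Groups of members by role were thinly covered. Of 4 CCCH decay factors 3 had hybrids, with 18 reads, 9 in each genotype, and 0 of 1 tested was called. Of 9 factors linked to pluripotency 4 had hybrids (Znf207, Znf217, Znf281 and Znf462), with 7 reads in WT and 12 in HM, none of them enough to be tested. Of 8 genes of imprint and retroelement silencing 1, Znf445, had 2 reads. Of 8 neural and developmental regulators 2 had hybrids, nearly all on Znf148. These counts stand beside 16.6% called over all genes tested, 10.8% lower. Among zinc finger genes outside the name rule, 22 BTB genes had 148 reads with 0 of 5 tested called, and 11 KLF and SP genes had 57 reads with 0 of 1 called. Of 19 genes of the corepressor machinery of KRAB proteins 8 had hybrids, with 18 reads and none tested. Of 6 ZIC, GLI and SALL genes 1 was tested and called lower in HM, and 2 SCAN genes had 15 reads with 0 of 1 called.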

How the data were processed

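AGO2 CLASH hybrids were measured in 6 libraries of P19 cells, 3 WT and 3 HM. The authors named the miRNA part with QuagmiR, aligned the target part to 3′ UTRs of mouse coding genes with Bowtie2 and kept interactions predicted by TargetScan. For the naming and alignment steps, tool versions and genome build are not given in the sources used here, nor is the treatment of duplicates or multiple alignments. The submitters' processing notes name Bowtie without a version. The deposited table gives raw read counts per distinct hybrid sequence and library, with no scaling. The prediction filter decides which miRNA and gene pairs can appear, and a read need not be an independent molecule: 426 of 431 family entries had 1 read.

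Genotype and replicate came from the sample titles. The members and lists were chosen with earlier results of these data known. Members named are those with at least 10 reads. miRNAs named are the 10 with most family reads and all called ones. Pairs named are the 10 with most family reads. Znf668, Znf445 and the sites were named after their values were seen, and lists are given by counts, with the names of the pluripotency members found. Reads were summed per gene, per pair and per miRNA, and edgeR 4.0.16 in R 4.3.3 fitted every feature of at least 10 reads by quasi-likelihood, with Benjamini-Hochberg adjusted p under 0.05 over all of them as the call. Library size was the total of all hybrids for genes and of 3p hybrids for pairs. The SE printed with an edgeR log2 value is that value, without sign, over the root of the quasi-likelihood F statistic. It is not a fitted standard error. The miRNA and seed tests compared family with other hybrids in 12 columns with the library as a block and column totals as size. Seeds are bases 2 to 8 from RefSeq for 255 of 298 miRNAs, and for the other 43 the commonest bases 2 to 8 of their hybrid reads. Guide and passenger classes are the study's. DESeq2 1.42.0, TMM, other minimums, other libraries and other member sets were alternatives.

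A feature with no read was taken to have up to 3, or 0.562 to 1.85 per 1000 hybrids. Folds against 0 use 3 reads in each library, or over all 6 libraries for shares of family reads. This floor is lower than the upper end of the exact 95% interval of a count of 0. Intervals are exact binomial at 95%. On simulated counts with 4-fold changes the tests recovered 32 of 80 changed genes among 300, 5 of 20 pairs among 125, 9 of 20 miRNAs among 89 and 2 of 20 seed groups among 58, with 0 false calls. The counts were drawn independently with a fixed dispersion that was not estimated from these data. They hold no clustering of reads on single members or sites, so the 0 false calls do not cover that case. Python 3.11.15, numpy 2.4.6, pandas 2.3.3, scipy 1.17.1 and matplotlib 3.10.9 were used. Protein sequences were not used here.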

Additional observations from a re-analysis of the deposited data

Results flagged for a closer look

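For 2 of the miRNAs named, family reads were found in every HM library and in no WT library. miR-30a-3p had 1, 7 and 3 reads on members in HM libraries 1 to 3, and miR-292a-3p had 1, 7 and 2. With the WT counts of 0 taken as a share of 0%, the difference in share between members and other genes was 2.27 percentage points higher in HM than in WT for miR-30a-3p and 2.33 points higher for miR-292a-3p. A count of 0 in a WT library allows a share on members of up to 4.48% to 6.67%, which is more than either difference and more than the share on other genes, at most 0.317% for miR-30a-3p and 1.08% for miR-292a-3p in WT. The WT share on members therefore cannot be placed below that on other genes at this depth. The edgeR interaction test gave an unadjusted p of 0.323 for miR-30a-3p and 0.0287 for miR-292a-3p, and an adjusted p of 1 for each over 94 miRNAs. Of the 11 miR-30a-3p reads 9 lay on Znf148.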

How the results depend on the processing

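Counts of called features moved most. For genes, 1 member was called with all hybrids as total, 3 with 3p totals, 0 with either DESeq2 fit, and 0 to 1 when single libraries were left out. With at least 30 reads 0 were called, but Znf146, with 13 reads, was not tested there. For pairs, 1 member pair was called, 0 with either DESeq2 fit, 3 with at least 5 reads, 2 with no minimum, and 0 to 1 without single libraries. With at least 30 reads 0 were called, but the pair of miR-291a-5p and Znf146, with 12 reads, was not tested there. For miRNAs, 8 were called, 16 with DESeq2, 3 with no minimum, 0 with 1 count per miRNA, gene and library, 4 without the 4 members with most reads and 3 to 7 without single libraries. After TMM 11 were called, all lower, and with DESeq2 all 16 were lower, against 4 of 8 in the main comparison. The median log2 difference over all miRNAs tested went from -1.22 to -2.27 with TMM and to -0.49 with DESeq2. For seed groups, 5 were called, 11 with DESeq2, 3 with no minimum, 1 with 1 count per miRNA, gene and library, 3 without the 4 members with most reads and 3 to 6 without single libraries. With TMM 7 groups were called, 2 of them higher, and all 11 of DESeq2 were lower. The 4-member alternative was chosen after seeing the data.

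For shares, HM minus WT was -57.7 points for 5p, -62.0 without Zfp91 and -64.7 without the 4 members, and -60.4 to -56.2 without single libraries. The passenger difference was 8.36, 10.8 without Zfp91, -2.88 with unclassed strands as passengers, and 7.02 to 9.92 without single libraries. The family share differed by -0.44, -0.0517 for 3p hybrids only, and -0.554 to -0.258 without single libraries.

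Signs of values reversed as follows (log2). With 3p totals under gene counts of both arms, Zfp91 was -0.96, Znf275 -0.67, Znf512b -0.37, Zfp36l2 -0.58 and Znf436 -0.34. In the pair test, miR-302b-3p on Zfp91 was 0.94 with all hybrids, 0.52 with TMM and 0.51 with DESeq2, and on Znf367 0.83, 0.42 and 0.57. With TMM, the miRNA preference was -0.31 for miR-302b-3p, -0.53 for miR-302d-3p, -0.78 for miR-302a-3p, -1.34 for miR-20b-5p, -0.22 for miR-291a-5p, -0.48 for miR-301a-3p, -1.18 for miR-130a-3p and -0.69 for miR-292a-3p. With DESeq2 the values were -1.11, -1.28, -1.57, -2.05, -0.015, -1.55, -2.47 and -1.82 in the same order, -0.48 for miR-30a-3p, -1.61 for seed AAGUGCU and -0.26 for AUCAAAG. miR-130a-3p was -0.17 with 1 count per miRNA, gene and library, -0.090 without Zfp91 and -0.024 without the 4 members, where miR-30a-3p was -0.23 and miR-191-5p and its seed AACGGAA -4.21, with no family read left. AAAGUGC was 0.0014 without Zfp91. Without single libraries, Zfp91 ran from -0.11 to 0.31, Znf275 from -0.048 to 0.64, miR-302b-3p on Zfp91 from -0.55 to 0.15 and on Znf367 from -0.60 to 0.62, miR-20b-5p from -0.23 to 0.31, miR-130a-3p from -1.09 to 0.31 and miR-292a-3p from -0.35 to 0.62. The cause was not tested beyond what these settings build in.

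Same-numbered WT and HM libraries did not deviate together (correlations of -0.0554, -0.0238 and -0.0250 over genes with at least 10 reads), so the numbers were not treated as pairs. With the replicate block 34 genes and 13 pairs were called over all features, and 1 member and 1 member pair, Znf146 and its miR-291a-5p pair. Depth limits the rest: 47 of 58 members had under 10 reads and were not tested.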
